A study of Mus musculus with 12 samples.

Results

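Chromatin accessibility was examined at the genes of the 4 MEF2 transcription factors (Mef2a, Mef2b, Mef2c and Mef2d) and the 4 class IIa histone deacetylases (Hdac4, Hdac5, Hdac7 and Hdac9). All ATAC-seq peaks that overlapped one of these gene bodies, or the 50 kb on either side of it, were taken from 7 peak lists (mm10 coordinates, GENCODE M21 basic gene models). Peaks of different lists that overlapped by at least 1 bp were merged into a locus. This gave 221 loci at the 8 genes, of 147985 loci in all and of 21938 protein-coding genes in the annotation.

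ATAC-seq uses the Tn5 transposase to insert sequencing adapters into open chromatin. It was applied to mouse embryonic fibroblasts (MEFs) that had been transformed with combinations of factors and passaged for a month or longer, and the study asked why some transformed lines can be reprogrammed to pluripotency and others cannot. The 12 libraries fell into 7 groups. The Hdac7SA.Mef2d cells carried transgenes for Mef2d and for Hdac7SA, an Hdac7 in which the serines at positions 178, 344 and 479 were changed to alanine to block its export from the nucleus. The Hras.E1A cells (Ras.E1A in the sample titles) carried the Hras oncogene with adenoviral E1A, and the Hras.Myc cells carried Hras with Myc. Both Hras lines were treated for 2 days with PD (PD0325901, an inhibitor of the kinase MEK), treated for 2 days with TSA (an inhibitor of histone deacetylases), or left untreated. Hdac7SA.Mef2d cells were untreated. The TSA groups had 1 library each and the other 5 groups had 2 each. All lines were labelled as OG2 MEFs, which the study describes as holding an Oct4-GFP reporter, whereas the growth text of the labels names an ICR background. The sources used here do not say whether a line was a single clone.

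The authors deposited 1 peak list per group, with the libraries pooled, so there was no spread between replicates and no test across replicates could be made. A locus is called open in a list if a peak of that list overlapped it, and closed if none did. A closed locus may still hold reads, because the files give no read counts and the depth is unknown. Fewer cells with an open site and less open chromatin per cell cannot be told apart in such bulk material. The lists depend on one another, because the authors recovered weak peaks at positions found in other samples. Each peak carried a score from the authors on a scale that is not stated, so scores are given as deposited together with their percentile, the share of peaks in the same list with a score no higher. The interval printed beside a share of loci is the exact (Clopper-Pearson) 95% interval. It reflects counting error alone and takes no account of dependence between neighbouring loci.

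The lists differed in length, with 119251 peaks in Hdac7SA.Mef2d and 56774 to 81201 in the other 6. The fibroblast label was checked at the promoters of 10 fibroblast genes, of which all 10 were open in Hdac7SA.Mef2d and 7 to 9 in the Hras lists. Promoters of 5 epithelial genes were open in 4 or 5 cases per list, those of 4 endothelial genes in 1 to 3, those of 4 blood and macrophage genes in 0 or 1, and those of 5 skeletal muscle genes in 1 or 2. The muscle promoters of Myog, Myf5 and Ckm had no peak in any list. An open promoter does not show that its gene is expressed, and the part of other cell types in the values below was not tested.

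MEF2 proteins are MADS-box transcription factors that bind an AT-rich DNA element and activate genes of muscle, neurons, vessels and the immediate early response. Class IIa histone deacetylases bind MEF2 through their N-terminal part and bring co-repressor complexes with Hdac3 to MEF2 target genes, having little deacetylase activity of their own. Kinases such as CaMK, protein kinase D and the SIK family phosphorylate serines of class IIa HDACs, 14-3-3 proteins then bind them, and the complex leaves the nucleus, which frees MEF2 to act. In muscle, Hdac9 is itself a MEF2 target gene.

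The number of open loci varied most between lists at the largest genes. Over all loci, 80.2% were open in Hdac7SA.Mef2d and 38 to 54.4% in the Hras lists. At the 221 loci these shares were 78.7% and 43 to 56.1%, and at Hdac9 they were 80.3% and 18 to 32.8%. Hdac9 (ENSMUSG00000004698.10, chromosome 12, 34047580 to 34917095, minus strand) had 61 loci, of which 49 were open in Hdac7SA.Mef2d. The Hras lists had far fewer open loci at Hdac9, with 11 and 20 in Hras.E1A treated with PD and TSA against 18 without treatment, and 16 and 15 in Hras.Myc treated with PD and TSA against 12 without treatment. Hdac4 (ENSMUSG00000026313.16, chromosome 1, 91928779 to 92195699, minus strand) had 40 loci, with 30 open in Hdac7SA.Mef2d and 12 to 19 in the Hras lists. At Hdac7 (ENSMUSG00000022475.19, chromosome 15, 97792664 to 97844502, minus strand), 23 of 27 loci were open in Hdac7SA.Mef2d and 14 to 19 in the Hras lists. Hdac5 (ENSMUSG00000008855.17, chromosome 11, 102194432 to 102230166, minus strand) showed little difference, with 15 of 18 loci open in Hdac7SA.Mef2d and 12 to 16 in the Hras lists.

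Among the MEF2 genes, Mef2b was the exception. At Mef2b (ENSMUSG00000079033.10, chromosome 8, 70139711 to 70167488, plus strand) 12 of 18 loci were open in Hdac7SA.Mef2d, no more than in any Hras list, where 12 to 17 were open. Mef2c (ENSMUSG00000005583.16, chromosome 13, 83504034 to 83667080, plus strand) had 16 of 19 loci open in Hdac7SA.Mef2d and 8 to 13 in the Hras lists. Mef2d (ENSMUSG00000001419.17, chromosome 3, 88142372 to 88172086, plus strand) had 16 of 21 open in Hdac7SA.Mef2d and 9 to 14 in the Hras lists. At Mef2a (ENSMUSG00000030557.17, chromosome 7, 67231163 to 67372858, minus strand) 13 of 17 loci were open in Hdac7SA.Mef2d, against 8 to 14 in the Hras lists, where Hras.E1A treated with TSA had 14.

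**Figure D1:**
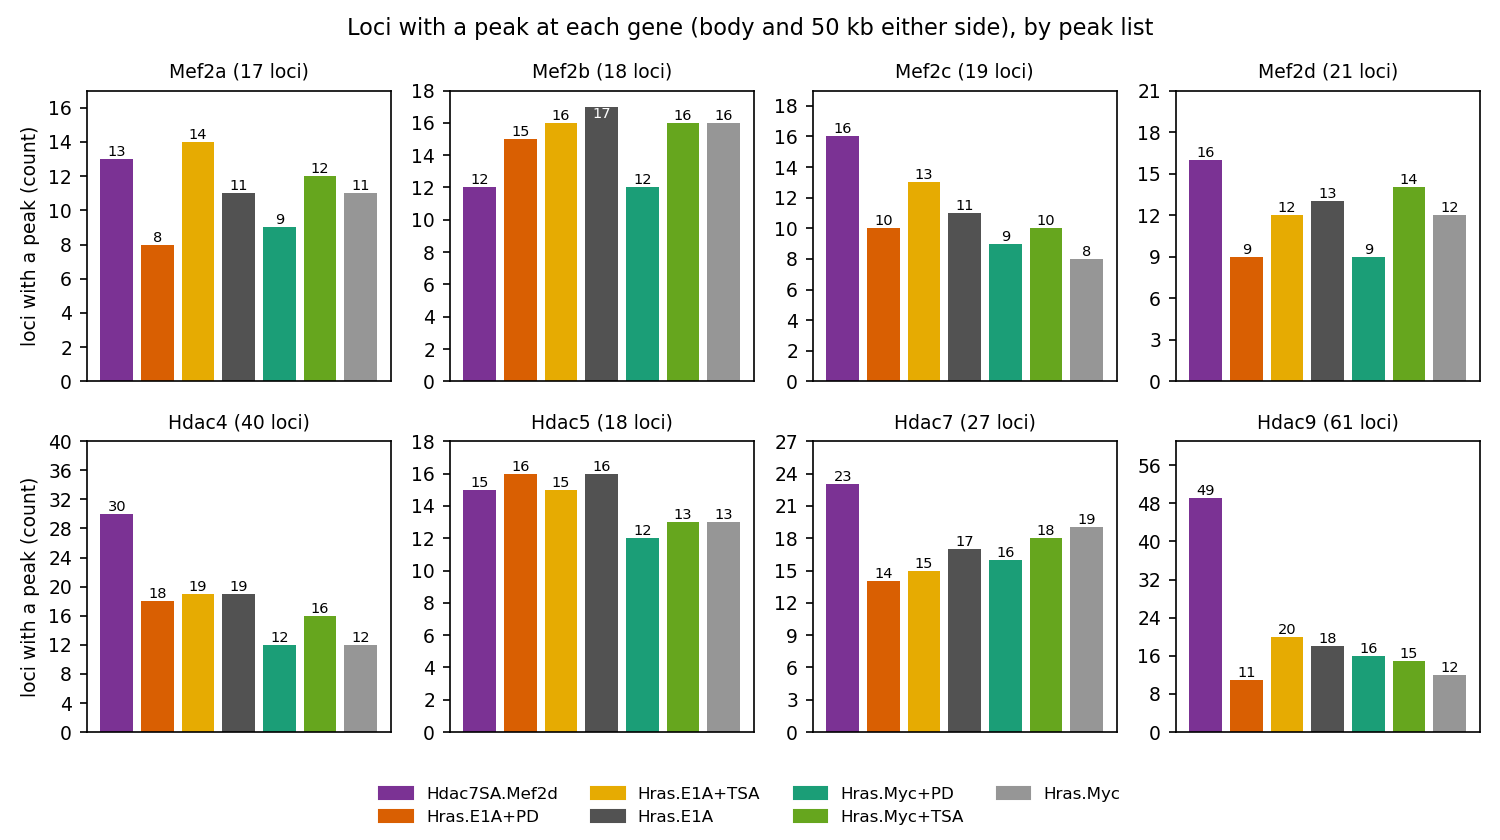
Number of loci with a peak (vertical axis, count, up to the number of loci at that gene) in each of the 7 peak lists (coloured bars) for each gene with 50 kb on either side. Hdac9 has 49 open loci in Hdac7SA.Mef2d and 11 to 20 in the Hras lists, whereas Mef2b has 12 in Hdac7SA.Mef2d and 12 to 17 in the Hras lists. Over all loci, 80.2% are open in Hdac7SA.Mef2d and 38 to 54.4% in the Hras lists.

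By position, 13 loci lay within 1000 bp of a transcription start site (TSS) of the gene (promoter loci), 15 overlapped an exon, 115 lay in introns and 78 in the flanks. Of all 221 loci, 14 lay within 1000 bp of the TSS of another protein-coding gene, 6 of them in the flanks of Hdac5 and 5 at Mef2b, where they can belong to the neighbours. Some flank loci lay in the bodies of other genes, such as Ncan, Slc25a42, Iqgap3 and Vdr, and some Mef2a intron loci in that of Lysmd4. Loci open in all 7 lists numbered 48, or 21.7% (95% interval 16.5 to 27.7), beside 20.2% of all loci. They were unevenly spread over the genes, with 10 of 18 at Hdac5, 9 of 18 at Mef2b, 10 of 27 at Hdac7, 5 each at Mef2a, Mef2c and Mef2d, 3 of 40 at Hdac4 and 1 of 61 at Hdac9. The single Hdac9 locus open in every list lay in an intron (34224525 to 34224924), with scores of 10.4 in Hdac7SA.Mef2d, 9.01, 12.2 and 7.88 in Hras.E1A with PD, with TSA and untreated, and 1.55, 9.51 and 7.80 in Hras.Myc with PD, with TSA and untreated. Its score was thus lowest in Hras.Myc with PD.

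Promoter loci were compared first. Of the 8 genes, 7 had at least 1 promoter locus open in all 7 lists (87.5%, 47.3 to 99.7), beside 57.4% of all protein-coding genes, and Hdac9 had none. The highest scores were at Mef2b, where the locus at 70152515 to 70152914 had percentiles of 93.7 in Hdac7SA.Mef2d and 88.0 to 99.8 in the Hras lists. A further Mef2b promoter locus (70139084 to 70139483) also lay at the start sites of Borcs8 and Rfxank, and Mef2b is annotated with a transcript that begins there. The Hdac5 promoter locus (102230027 to 102230426) had percentiles of 80.9 in Hdac7SA.Mef2d and 74.4 to 94.3 in the Hras lists, and that of Hdac4 (92180314 to 92180713) had 62.4 in Hdac7SA.Mef2d and 57.0 to 82.0 in the Hras lists. Mef2a and Mef2d were intermediate. The Mef2a promoter locus (67372770 to 67373169) had percentiles of 55.5 in Hdac7SA.Mef2d and 23.6 to 71.8 in the Hras lists, and that of Mef2d (88142084 to 88142483) had 35.2 in Hdac7SA.Mef2d and 42.3 to 79.2 in the Hras lists.

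The promoter loci of Mef2c and Hdac7 were open with low scores. At Mef2c, the locus over the start sites (83524494 to 83524893) scored 3.98 in Hdac7SA.Mef2d, 5.12, 5.26 and 4.26 in Hras.E1A with PD, with TSA and untreated, and 3.69, 3.44 and 4.29 in Hras.Myc with PD, with TSA and untreated. No locus lay within 1000 bp of the other annotated Mef2c start sites, including the most upstream one at 83504034. At Hdac7, the promoter locus at 97831090 to 97831489 was open in all lists with percentiles of 6.59 in Hdac7SA.Mef2d and 5.91 to 46.0 in the Hras lists. The upstream Hdac7 start sites from 97844164 to 97844502 had no locus within 1000 bp. Another Hdac7 promoter locus (97831855 to 97832254) had no peak only in Hras.Myc treated with TSA, and a downstream start site of Hdac7 (locus 97814640 to 97815039) had no peak in Hras.E1A treated with PD or Hras.Myc treated with TSA. When the lowest quartile of peaks by score was removed from each list, the number of genes with a promoter locus open in all lists fell to 4, and it was 4 with all lists reduced to the 56774 peaks of the shortest.

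**Figure D2:**
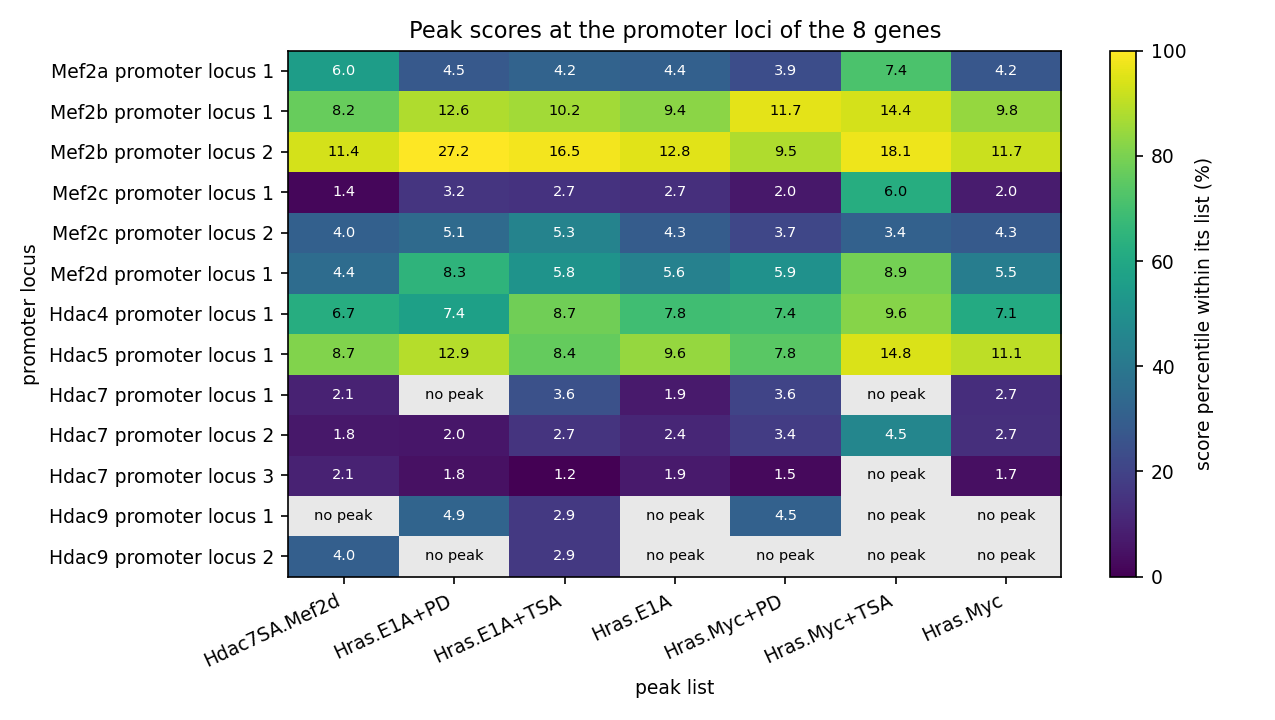
Scores of the authors' peaks (numbers, unit not stated) at the 13 promoter loci of the 8 genes (rows) in the 7 lists (columns), coloured by the percentile of the score within its list, with grey cells where the list has no peak. The Hdac9 rows are mostly grey, and the Mef2b and Hdac5 rows are the brightest.

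Treatment changed 1 promoter in the same way in both Hras lines, that of Hdac9. The locus over its basic start sites at 34528304 and 34528328 (chromosome 12, 34528151 to 34528550) was opened by PD in both lines, with scores of 4.88 in Hras.E1A with PD and 4.55 in Hras.Myc with PD, against no peak in either untreated list. It was also open in Hras.E1A with TSA, with a score of 2.87, and closed in Hras.Myc with TSA and in Hdac7SA.Mef2d. A locus 225 bp upstream of a further start site at 34528874 (34529099 to 34529498) was open in Hdac7SA.Mef2d, with a score of 3.96, and in Hras.E1A with TSA, with a score of 2.90, and closed in the other 5 lists. Each Hdac9 promoter locus was therefore closed in both untreated Hras lists. The 250 bases upstream of the RefSeq start of Hdac9 are shown because they hold few CpG pairs beside most promoters of these genes that were open in every list (GRCm38, chr12:34528890-34529139, read on the minus strand, with CpG pairs in capitals).
Hdac9 promoter: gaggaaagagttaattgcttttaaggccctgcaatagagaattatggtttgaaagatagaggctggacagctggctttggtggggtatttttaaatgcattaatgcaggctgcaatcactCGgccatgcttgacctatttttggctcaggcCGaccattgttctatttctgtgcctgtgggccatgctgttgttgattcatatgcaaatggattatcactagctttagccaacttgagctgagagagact
This stretch holds 2 CpG pairs and 43.6% G or C, and the stretch upstream of the more distant RefSeq start of Hdac9 (34917095), which had no locus within 1000 bp, holds 0. The corresponding stretches of Hdac4, Mef2a and Mef2d hold 23, 21 and 19 CpG pairs, and that of the Mef2c start with open loci (83523656) holds 6, beside a median of 6 over 32851 RefSeq promoters. All 8 genes were matched in that table, with 14 start sites.

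The Hdac5 promoter holds a match to the MEF2 element 17 bases upstream of the first annotated basic start site. It is shown with the match in capitals, on the plus strand, while Hdac5 is transcribed from the minus strand.
Hdac5 promoter (chr11:102230168-102230207): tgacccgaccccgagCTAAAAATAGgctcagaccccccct
A MEF2 element was found in the 250 bases upstream of 2.92% of RefSeq starts, and among the 14 starts of the 8 genes it was found at this one only. The Mef2a promoter locus (67372770 to 67373169) also held a match, outside the 250 bases upstream of the Mef2a start. The Hdac5 promoter locus was open in every list, with a score of 8.70 in Hdac7SA.Mef2d. It scored 12.9, 8.44 and 9.60 in Hras.E1A with PD, with TSA and untreated, and 7.78, 14.8 and 11.1 in Hras.Myc with PD, with TSA and untreated.

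Promoter scores ranked higher with TSA in Hras.Myc. All 9 promoter loci that were open in both lists had a higher percentile with TSA than without, by a median of 20.8 points (2.78 to 54.6). The same direction was seen at 77.2% of all promoter loci open in both lists, with a median difference of 11.4 points. The largest of these differences was at a Mef2c promoter locus (83523637 to 83524036), with percentiles of 62.2 with TSA and 7.62 without treatment. Of the 11 promoter loci open in untreated Hras.Myc, the other 2, both at Hdac7, had no peak with TSA. A higher percentile was not always a higher score. The Mef2c locus over the start sites (83524494 to 83524893) scored 3.44 with TSA and 4.29 without treatment. In Hras.E1A, 9 of 11 promoter loci ranked higher with TSA, by a median of 3.36 points, beside 68.1% of all promoter loci. With PD, 6 of 10 ranked higher in Hras.E1A and 5 of 11 in Hras.Myc, beside 59.0% and 58.8% of all promoter loci.

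The untreated lines were compared next, to ask how these genes differ in the line with the Hdac7SA and Mef2d transgenes. Of the 221 loci, 72 were open in Hdac7SA.Mef2d and in neither untreated Hras list. That is 32.6% (26.4 to 39.2), beside 34.1% of all loci, so the 8 genes as a whole were near the background. Hdac9 contributed 36 of them, out of 61 loci, or 59.0% (45.7 to 71.4), and the other 7 genes together had 36 of 160 loci, 22.5% (16.3 to 29.8). Hdac4 had 14 of 40, Mef2d 7 of 21, Mef2c 6 of 19, Hdac7 5 of 27, Mef2a 3 of 17, Hdac5 1 of 18 and Mef2b 0 of 18. In the opposite direction, 18 of 221 loci were open in both untreated Hras lists and closed in Hdac7SA.Mef2d, or 8.14% (4.90 to 12.6), beside 6.53% of all loci. Mef2b and Hdac4 had 4 of these each, Mef2d had 3, and every gene had at least 1. With all lists reduced to the same size, the share open only in Hdac7SA.Mef2d among the untreated lists was 19.6%, beside 21.2% of all loci, and the share closed only there was 15.2%, beside 16.4%.

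Loci with a peak in the Hdac7SA.Mef2d list but in no Hras list numbered 47, or 21.3% (16.1 to 27.3), beside 24.0% of all loci. Hdac9 held 24 of them, Hdac4 10, Mef2c, Mef2d and Hdac7 4 each, Hdac5 1, and Mef2a and Mef2b 0. None was a promoter locus, 32 lay in introns, 3 over exons and 12 in flanks. Of the intron loci of Hdac9, 22 of 50 were open only in Hdac7SA.Mef2d (44.0%, 29.99 to 58.7), beside 25.4% of intron loci of all protein-coding genes, whereas the other 7 genes had 10 of 65 such intron loci (15.4%, 7.63 to 26.5). Among 348 protein-coding genes with at least 30 loci in the body, 50 had a higher share of loci open only in Hdac7SA.Mef2d than Hdac9 (40.7% of its 59 body loci), and the median gene had 23.8%. Hdac4, at 22.6% of 31 body loci, was near that median. With all lists reduced to the same size, 14 of 45 Hdac9 body loci were open only in Hdac7SA.Mef2d (31.1%, 18.2 to 46.6), beside 15.5% of all loci. Among the 183 genes that then had at least 30 body loci, 22 had a higher share than Hdac9, and the median gene had 13.3%.

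The Hdac9 loci of Hdac7SA.Mef2d were spread along the whole gene. The gene record reaches 388 kb upstream of the start sites of the basic transcripts, and in this stretch 19 of 22 loci were open in Hdac7SA.Mef2d, 9 of them in no other list. In the 481 kb from these start sites to the 3' end, 28 of 37 were open in Hdac7SA.Mef2d, 15 of them in no other list. Scores of the 24 Hdac9 loci ranged between 1.52 and 14.6 with a median of 5.57, and their median percentile was 49.8, so they were of middle rank in their list. The highest lay in an intron at 34229809 to 34230208, with a score of 14.6, and in the upstream stretch at 34874977 to 34875376, with a score of 13.6. Twist1, which encodes a mesenchymal transcription factor, is the neighbour on the 3' side at a distance of 88 kb, and introns of Hdac9 are known to hold enhancers of Twist1. The loci here were assigned by position, and which gene they act on was not tested.

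**Figure D3:**
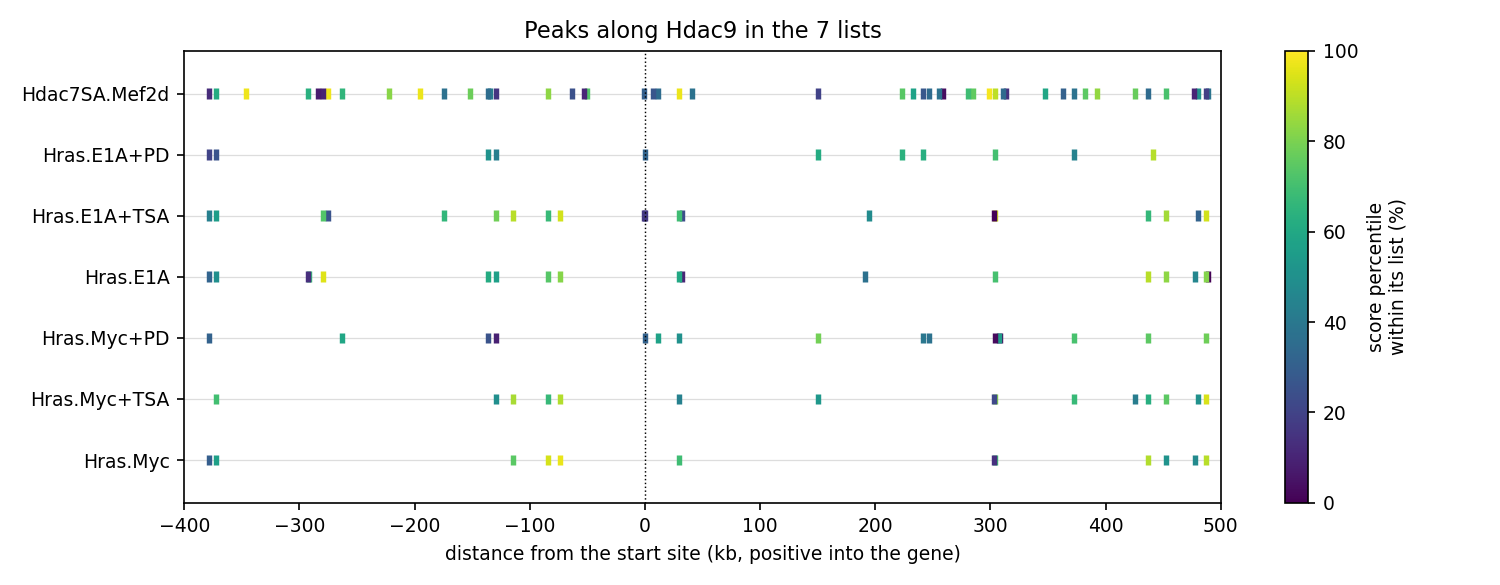
Peaks along Hdac9 in the 7 lists (rows), by distance from the most upstream basic start site in kb (positive into the gene), coloured by score percentile within the list. Marks are drawn wider than the 400 bp peaks. Hdac7SA.Mef2d has 47 open loci over the gene body, and the Hras lists have 11 to 19.

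The highest-scoring body loci open only in Hdac7SA.Mef2d at the other genes were fewer. At Hdac4 they lay in introns at 92014513 to 92014912, with a score of 9.44, and 92080183 to 92080582, with a score of 7.23. At Mef2c they were intron loci at 83585351 to 83585750 (score 8.05) and 83559958 to 83560357 (score 6.72). Hdac5 had a single one in an intron, at 102225226 to 102225625, with a score of 2.05, and Mef2d a single one over exon 5. Mef2a, Mef2b and Hdac7 had none in the gene body, the 4 Hdac7 loci all being flank loci. These 4 lay in the bodies of the neighbours Rapgef3, Slc48a1 and Vdr.

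The exons of Mef2d and Hdac7 were examined because reads of a transgene cDNA would map to exons of the endogenous gene. Mef2d had 3 exon loci and Hdac7 had 1. The exon 5 locus of Mef2d (88159015 to 88159414), which had a peak of score 13.1 in Hdac7SA.Mef2d and none in the other lists, ranked at percentile 96.9 of that list, above every other Mef2d locus of the gene body there. It covered all 211 bases of the coding exon, and its centre lay 12 bases from the centre of the exon. The exon is shown in capitals with the neighbouring 40 intron bases on each side (GRCm38, chr3:88159082-88159372, plus strand), because reads of a cDNA do not extend past these borders into the introns.
Mef2d exon 5: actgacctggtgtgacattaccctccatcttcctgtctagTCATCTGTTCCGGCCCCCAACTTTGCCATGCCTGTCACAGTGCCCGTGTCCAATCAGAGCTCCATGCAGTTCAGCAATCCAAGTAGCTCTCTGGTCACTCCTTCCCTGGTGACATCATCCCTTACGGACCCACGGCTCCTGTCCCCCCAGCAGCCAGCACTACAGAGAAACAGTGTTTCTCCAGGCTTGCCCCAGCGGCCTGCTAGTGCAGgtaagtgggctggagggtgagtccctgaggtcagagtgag
The deposited peaks are all 400 bp wide, so they do not show where the signal ends, and reads of the transgene and of the endogenous chromatin cannot be told apart in the lists.

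The other Mef2d exon loci did not share this pattern. The locus over exon 4 (88157858 to 88158257), which spans all 138 bases of one version of that exon and 37 of 135 bases of another, scored 2.74 in Hdac7SA.Mef2d. It scored 10.8, 2.66 and 8.93 in Hras.E1A with PD, with TSA and untreated, and 9.44, 7.78 and 8.21 in Hras.Myc with PD, with TSA and untreated. Its percentile was 16.5 in Hdac7SA.Mef2d, 14.3 in Hras.E1A with TSA and 73.1 to 87.4 in the other lists, so it ranked low in the line with the transgene. The third (88167755 to 88168154), at the border of an exon numbered 10 or 11 by transcript, had scores of 2.50 (Hdac7SA.Mef2d) and 2.27 (Hras.Myc with TSA). Of 13 annotated coding segments of Mef2d, peaks touched 5 in Hdac7SA.Mef2d, 4 in Hras.Myc with TSA and 2 in each other list.

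Hdac7 showed no such signal. Its exon locus (97802591 to 97802990, with 134 coding bases) was open only in Hras.Myc with TSA, with a score of 1.96 and a percentile of 8.01. Of 28 coding segments of Hdac7, peaks touched 1 in Hdac7SA.Mef2d, 2 in Hras.Myc with TSA and 1 in each other list. Over all 8 genes, 3 of 15 exon loci were open only in Hdac7SA.Mef2d, 1 at Mef2d and 2 at Hdac9, or 20% (4.33 to 48.1), beside 15.8% of exon loci of protein-coding genes. These were 1 of 3 exon loci of Mef2d and 2 of 7 of Hdac9. The Hdac9 loci (34052076 to 34052475 and 34215339 to 34215738) had percentiles of 9.94 and 14.1 in Hdac7SA.Mef2d, far below the 96.9 of Mef2d exon 5.

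**Figure D4:**
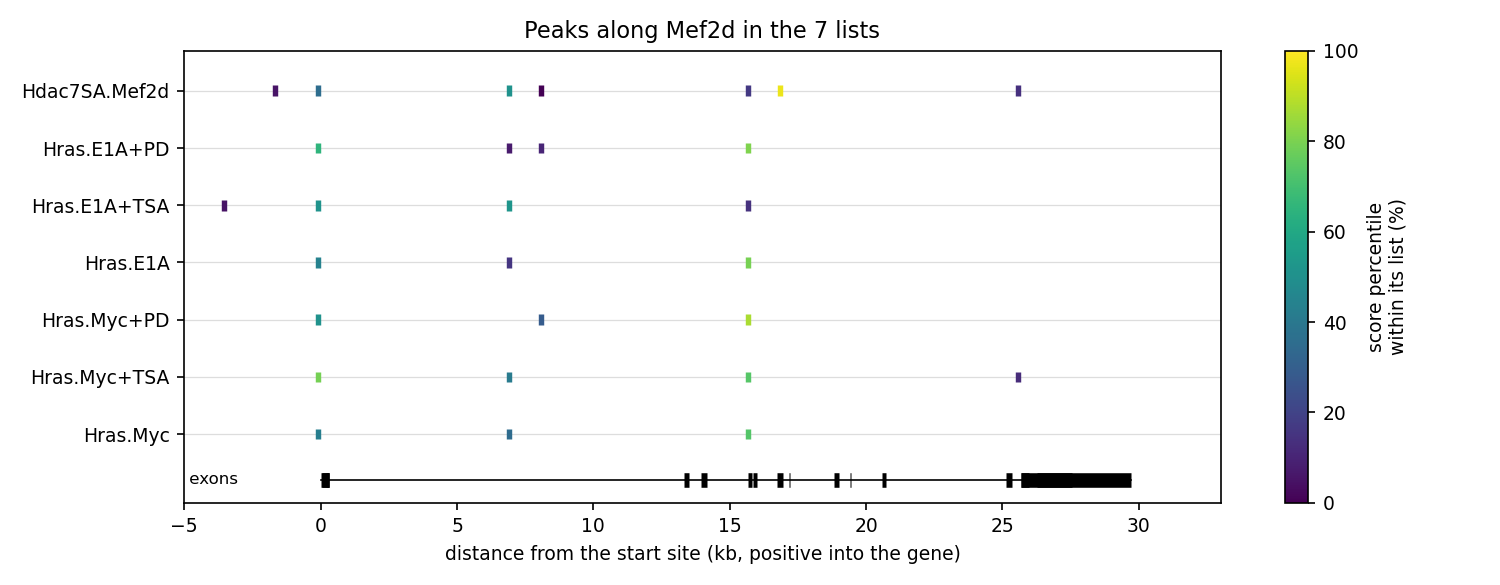
Peaks along Mef2d in the 7 lists (rows), by distance from the annotated start of the gene in kb, coloured by score percentile within the list, with the exons of the basic transcripts in black below. The brightest mark in the Hdac7SA.Mef2d row lies over exon 5 and has no counterpart in the Hras rows.

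Lists with and without PD were compared within each Hras line, to ask whether MEK inhibition changes chromatin at these genes. A locus is said to be closed by a treatment if it had a peak without the treatment and none with it, and opened in the reverse case. In Hras.E1A, PD closed 42 of 122 loci that were open without treatment, or 34.4% (26.1 to 43.6), beside 38.9% of all such loci. It opened 21 of 99, or 21.2% (13.6 to 30.6), beside 14.9%. In Hras.Myc, PD closed 31 of 103, or 30.1% (21.5 to 39.9), beside 38.4%, and opened 23 of 118, or 19.5% (12.8 to 27.8), beside 18.4%. The 4 intervals hold the background values, so the 8 genes together were not distinguishable from other loci in their response to PD at this number of loci. With lists of equal size, PD opened 38.6% in Hras.E1A, beside 31.5% of all loci, and 38.1% in Hras.Myc, beside 31.7%.

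The genes differed among themselves in the loci that PD closed. Hdac9 had the highest share in Hras.E1A, with 13 of 18 open loci closed (72.2%, 46.5 to 90.3), and 7 of 12 in Hras.Myc (58.3%, 27.7 to 84.8). Hdac4 had 7 of 19 in Hras.E1A and the highest share in Hras.Myc, with 8 of 12 (66.7%, 34.9 to 90.1). Hdac5 had the lowest share in both lines, with 1 of 16 in Hras.E1A and 1 of 13 in Hras.Myc. Position moved with these values, since 50 of 61 loci of Hdac9 and 30 of 40 of Hdac4 lay in introns, against 5 of 18 of Hdac5, and its part in them was not tested. Among intron loci alone, PD closed 10 of 15 of Hdac9 in Hras.E1A (66.7%, 38.4 to 88.2) and 6 of 10 in Hras.Myc (60%, 26.2 to 87.8). It closed 7 of 15 intron loci of Hdac4 in Hras.E1A (46.7%, 21.3 to 73.4) and 7 of 9 in Hras.Myc (77.8%, 39.99 to 97.2). Over the intron loci of all 8 genes, PD closed 24 of 52 in Hras.E1A and 20 of 37 in Hras.Myc, or 46.2% (32.2 to 60.5) and 54.1% (36.9 to 70.5), beside 48.5% and 49.6% of the intron loci of all protein-coding genes. Of 11 promoter loci open without treatment, PD closed 1 in Hras.E1A and 0 in Hras.Myc, beside 6.98% and 7.16% of all promoter loci.

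**Figure D5:**
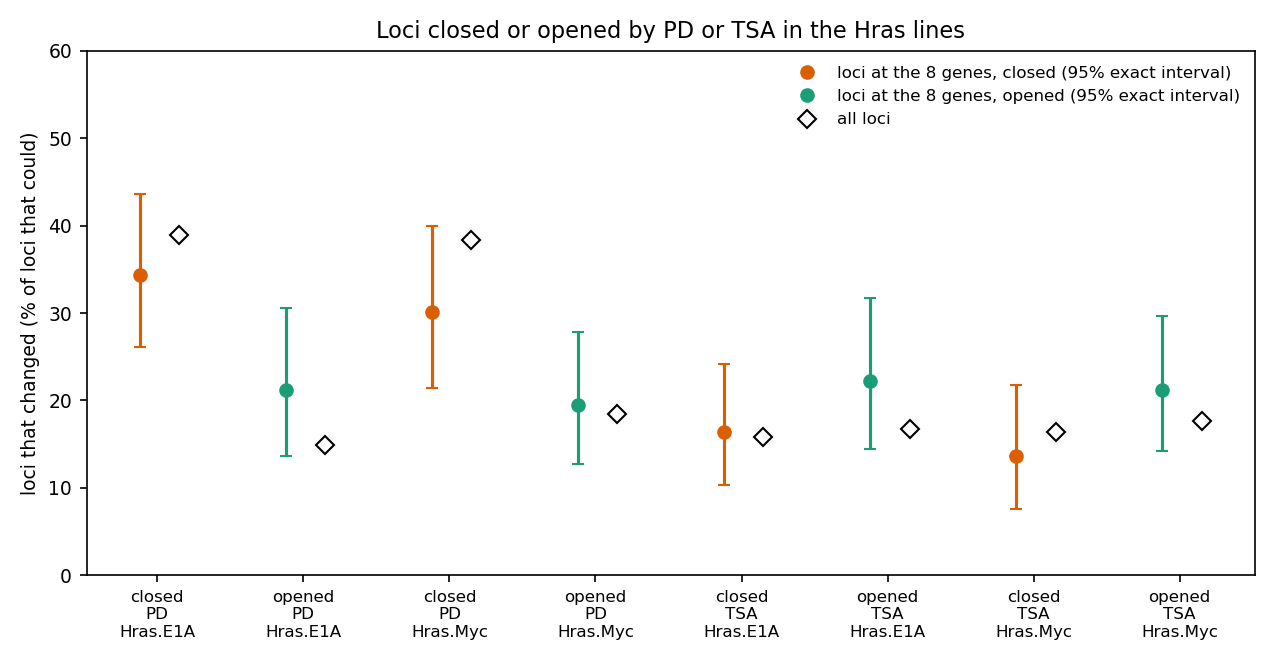
Loci closed or opened by PD or TSA in each Hras line, as a percentage of the loci that could change (vertical axis), for the loci at the 8 genes (filled points with exact 95% intervals) and for all loci (open diamonds). Every interval of the 8 genes holds the value of all loci.

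PD closed 20 loci in both Hras lines, of 95 that were open in both untreated lists (21.1%, 13.4 to 30.6), beside 24.4% of all such loci. Hdac4 had 6 of them, Hdac9 4, Mef2d 3, Mef2a, Mef2b and Hdac7 2 each, Mef2c 1 and Hdac5 0. They comprised 12 intron loci, 7 flank loci, 1 exon locus and 0 promoter loci. TSA left 16 of the 20 open in both lines (80.0%, 56.3 to 94.3), beside 74.7% of all loci that PD closed in both. Hdac7SA.Mef2d was open at 8 of the 20, beside 61.8% of all loci that PD closed in both lines. Of the same 95 loci, a further 11 were closed by PD in Hras.E1A and kept in Hras.Myc, and 6 were closed in Hras.Myc and kept in Hras.E1A. The matching shares over all loci were not computed, so these counts do not show a difference particular to the 8 genes.

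At Hdac4, all 6 loci that PD closed in both lines were intronic, out of 8 intron loci open in both untreated lists. The highest score in untreated Hras.E1A was at 91956194 to 91956593, with no peak in Hras.E1A with PD against 15.3 in untreated Hras.E1A, and no peak in Hras.Myc with PD against 5.31 in untreated Hras.Myc. That locus scored 9.59 in Hdac7SA.Mef2d. The locus at 92064259 to 92064658 scored 9.07 (Hras.E1A) and 9.39 (Hras.Myc) without treatment, and had no peak in either list with PD or in Hdac7SA.Mef2d. The others began at 91941459, 91945294, 92050732 and 92076240, with scores between 1.41 and 5.46 in the untreated Hras lists.

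At Hdac9, the intron loci at 34076110 to 34076509 and 34612489 to 34612888 had no peak with PD in either Hras line and were open in Hdac7SA.Mef2d, with scores of 7.55 and 8.99. In the untreated lists they scored 9.47 and 8.21 in Hras.E1A, and 6.25 and 12.3 in Hras.Myc. The intron locus at 34602741 to 34603140 scored 9.25 (Hras.E1A) and 14.3 (Hras.Myc) without treatment and had no peak in Hdac7SA.Mef2d. The locus at 34051101 to 34051500, in the non-coding part of exon 25, scored 5.75 (Hras.E1A) and 5.93 (Hras.Myc) without treatment and was closed in all other lists, with TSA as well as with PD. It was the only locus of the 8 genes that TSA closed in both lines.

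At the remaining genes, PD closed single loci in both lines. At Mef2a these were a flank locus at 67213617 to 67214016, with scores of 10.0 (Hras.E1A) and 8.74 (Hras.Myc) without treatment, and an intron locus at 67287442 to 67287841, with scores of 8.57 and 8.07 in these lists, and of 15.2 in Hdac7SA.Mef2d. The Mef2a intron locus also lies in the body of Lysmd4. At Mef2d the closed loci were 3 upstream flank loci beginning at 88097718, 88099253 and 88128060. Those at 88097718 and 88099253 lie in the body of Iqgap3. At Mef2b they were 2 flank loci beginning at 70111722 and 70203640, which lie in the bodies of Ncan and Slc25a42. At Hdac7 they were an intron locus at 97812058 and a flank locus at 97871219, the latter in the body of Vdr. At Mef2c it was an intron locus at 83572074.

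Among the 20 loci, 13 held an AP-1 element (TGACTCA or TGAGTCA, which are each other's reverse complement), or 65.0% (40.8 to 84.6), beside 68.7% of all loci that PD closed in both lines and 29.1% of all loci. AP-1 is the dimer of Fos and Jun proteins that acts downstream of MEK and ERK. The 8 sites in gene bodies are shown as examples of the letters at loci that PD closed, and the 5 in flanks (3 at Mef2d, 1 each at Mef2a and Mef2b) are left out. They are given with the AP-1 element in capitals and 15 bases on each side (GRCm38, plus strand, and in a locus with more than 1 site the one nearest its centre).
Hdac4 intron (chr1:91941776-91941812): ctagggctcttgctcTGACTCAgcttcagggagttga
Hdac4 intron (chr1:91945465-91945501): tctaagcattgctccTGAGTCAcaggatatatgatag
Hdac4 intron (chr1:92064386-92064422): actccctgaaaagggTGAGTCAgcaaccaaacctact
Hdac4 intron (chr1:92076366-92076402): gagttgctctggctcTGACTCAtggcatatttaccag
Hdac9 intron (chr12:34076287-34076323): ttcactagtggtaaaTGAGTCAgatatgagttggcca
Hdac9 intron (chr12:34602987-34603023): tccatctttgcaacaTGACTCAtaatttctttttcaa
Hdac9 intron (chr12:34612677-34612713): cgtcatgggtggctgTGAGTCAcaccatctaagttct
Mef2a intron (chr7:67287607-67287643): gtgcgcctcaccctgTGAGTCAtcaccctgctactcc
A match describes the letters of the locus and does not show that AP-1 was bound there. The 2 Hdac4 loci without a match were those at 91956194 and 92050732.

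PD opened 9 loci in both lines, of 91 that were closed in both untreated lists (9.89%, 4.62 to 17.9), beside 6.71% of all such loci. Hdac9 had 4 of these, Mef2c and Hdac4 2 each and Mef2d 1. With lists of equal size the share was 21%, beside 16.2% of all loci. The Hdac9 loci were the promoter locus described above, intron loci at 34155767 to 34156166 and 34377921 to 34378320, and a locus at 34287211 to 34287610 that overlapped 121 coding bases. At 34377921 the scores were 7.85 in Hras.E1A with PD and 8.22 in Hras.Myc with PD, against no peak in the untreated lists, and 5.09 in Hras.Myc with TSA and 3.04 in Hdac7SA.Mef2d. All 3 of these Hdac9 loci away from the promoter were open in Hdac7SA.Mef2d. Over the 9 loci, 5 were open in Hdac7SA.Mef2d, beside 62.9% of all loci that PD opened in both lines.

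The Mef2c loci that PD opened in both lines were intron loci at 83608151 to 83608550, with scores of 5.86 in Hras.E1A with PD and 1.80 in Hras.Myc with PD, and 83612156 to 83612555, with scores of 1.23 and 5.25 in these lists and 6.01 in Hdac7SA.Mef2d. The Mef2d locus (88150266 to 88150665) lay in the first intron, with scores of 2.54 in Hras.E1A with PD, 4.36 in Hras.Myc with PD and 1.24 in Hdac7SA.Mef2d. At Hdac4 they were an intron locus at 92083995 and a flank locus at 92212211. An AP-1 element was found in 1 of the 9 loci, beside 5.39% of all loci that PD opened in both lines. The TEAD element GGAATG, searched on both strands, was found in 3 of 9, beside 42.9% of those loci and 29.4% of all loci. The 3 loci with a TEAD match lay at Mef2c and Hdac9, and each is shown with 1 match in capitals. The Mef2c locus and the Hdac9 exon locus hold 2 matches each. The other Mef2c match is in lower case in the stretch shown.
Mef2c intron (chr13:83612527-83612562): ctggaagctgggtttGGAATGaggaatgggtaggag
Hdac9 exon locus (chr12:34287400-34287435): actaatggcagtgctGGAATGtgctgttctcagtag
Hdac9 intron (chr12:34378130-34378165): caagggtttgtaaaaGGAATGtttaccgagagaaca

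Lists with and without TSA were compared within each Hras line, to ask whether inhibition of histone deacetylases changes chromatin at these genes, with 1 library in each TSA group. In Hras.E1A, TSA closed 20 of 122 open loci, or 16.4% (10.3 to 24.2), beside 15.8% of all such loci, and opened 22 of 99, or 22.2% (14.5 to 31.7), beside 16.7%. In Hras.Myc it closed 14 of 103, or 13.6% (7.63 to 21.8), beside 16.4%, and opened 25 of 118, or 21.2% (14.2 to 29.7), beside 17.7%. With lists of equal size, TSA closed 22.9% in Hras.E1A, beside 20.2% of all loci, and 25.3% in Hras.Myc, beside 22.0%. It then opened 14.9% in Hras.E1A, beside 17.8%, and 20.6% in Hras.Myc, beside 19.4%. The order of the 8 genes and all loci thus turned for the loci opened in Hras.E1A and for those closed in Hras.Myc. The share opened was 34.8% (16.4 to 57.3) at the MEF2 genes and 18.4% (10.5 to 29.0) at the class IIa HDAC genes in Hras.E1A, and 35.7% (18.6 to 55.9) and 16.7% (9.64 to 25.995) in Hras.Myc. The intervals of the 2 families overlapped in both lines.

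Few loci responded to TSA in both lines. TSA closed 1 of 95 loci in both (1.05%), beside 2.62% of all such loci, and opened 5 of 91 (5.49%, 1.81 to 12.4), beside 3.34%. Opened in the gene bodies were an intron locus of Mef2a (67283532 to 67283931) with scores of 1.25 in Hras.E1A with TSA and 3.59 in Hras.Myc with TSA, the Mef2c intron locus at 83608151 that PD also opened, an intron locus of Hdac4 (92086637 to 92087036) with scores of 2.22 and 2.77, and a locus of Hdac9 (34048568 to 34048967) in the non-coding part of the same exon 25 with scores of 4.16 and 4.82. The fifth was a flank locus of Mef2b. The Hdac9 locus was also open in Hdac7SA.Mef2d, with a score of 5.61.

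The 2 Hras lines were also compared over their 3 lists each. At the 8 genes, 30 loci were open in at least 1 Hras.E1A list and in no Hras.Myc list (13.6%, 9.35 to 18.8), beside 12.9% of all loci, and 14 in at least 1 Hras.Myc list and in no Hras.E1A list (6.33%, 3.51 to 10.4), beside 8.47%. Both intervals hold the value of all loci. Some of these loci had a peak in a single treated list and nowhere else. In Hras.E1A they were 4 with TSA (1.81%, beside 0.974% of all loci) and 3 with PD (1.36%, beside 0.884%). In Hras.Myc they were 3 with TSA (1.36%, beside 1.2%) and 2 with PD (0.905%, beside 1.57%). Of the 30 loci Hdac9 had 12, Hdac4 6 and Hdac7 2, and of the 14 loci Hdac9 had 6, Hdac4 1 and Hdac7 4. Mef2b had 0 of either.

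The MEF2 element was more frequent at these genes than over all loci. It was found in 29 of 221 loci, or 13.1% (8.97 to 18.3), beside 7.30% of all loci. Hdac9 had 10 of these loci, Hdac4 7, Hdac7 4, Mef2a 3, Mef2c and Hdac5 2 each, Mef2d 1 and Mef2b 0. The share was 15.8% (10.3 to 22.7) at the class IIa HDAC genes and 8% (2.99 to 16.6) at the MEF2 genes, with overlapping intervals. Among loci open in all 7 lists, 6 of 48 held it (12.5%, 4.73 to 25.2), beside 3.08% of all loci open in all 7 lists. Among those open only in Hdac7SA.Mef2d, 7 of 47 held it (14.9%, 6.20 to 28.3), beside 13.9% of all such loci. The element of SRF, another MADS-box factor, was found in 4 of 221 loci (1.81%), beside 2.34% of all loci.

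The loci with a MEF2 element that were open only in Hdac7SA.Mef2d, or that changed with a treatment in both Hras lines, are shown with the element in capitals (GRCm38, plus strand).
Mef2d upstream flank (chr3:88140778-88140817): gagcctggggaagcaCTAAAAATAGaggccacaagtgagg
Hdac4 intron (chr1:92039209-92039248): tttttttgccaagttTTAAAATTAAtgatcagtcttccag
Hdac4 upstream flank (chr1:92202953-92202992): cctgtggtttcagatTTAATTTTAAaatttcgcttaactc
Hdac4 upstream flank (chr1:92212539-92212578): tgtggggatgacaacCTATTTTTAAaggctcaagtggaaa
Hdac7 intron (chr15:97812336-97812375): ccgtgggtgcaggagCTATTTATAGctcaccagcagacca
Hdac7 upstream flank (chr15:97878889-97878928): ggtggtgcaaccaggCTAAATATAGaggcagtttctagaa
Hdac9 intron (chr12:34217859-34217898): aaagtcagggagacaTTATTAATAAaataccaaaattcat
Hdac9 intron (chr12:34270097-34270136): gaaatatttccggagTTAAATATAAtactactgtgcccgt
Hdac9 intron (chr12:34612568-34612607): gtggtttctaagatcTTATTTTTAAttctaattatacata
Hdac9 intron (chr12:34681121-34681160): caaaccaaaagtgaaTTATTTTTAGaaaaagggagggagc
The Mef2d site lay in a locus at 88140495 to 88140894, 1478 bp from the Mef2d start site, which scored 1.71 in Hdac7SA.Mef2d and was closed in all Hras lists. The Hdac7 intron site lay in the locus at 97812058 to 97812457, which PD closed in both lines and TSA closed in Hras.E1A, and which scored 5.42 in Hdac7SA.Mef2d, 4.73 in untreated Hras.E1A, and 3.39 with TSA and 3.98 without treatment in Hras.Myc. The Hdac4 flank site at 92212539 lay in a locus that PD opened in both lines, with scores of 5.34 in Hras.E1A and 4.87 in Hras.Myc. The Hdac9 site at 34612568 lay in a locus that also holds an AP-1 element and that PD closed in both lines. The other 6 sites lay in loci open only in Hdac7SA.Mef2d, with scores between 1.52 and 11.6. Among them, the Hdac7 upstream flank site lay in the body of Vdr.

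Genes that act with MEF2 and class IIa HDACs were examined in the same windows. All 18 kinases and phosphatases of the list, among them Camk2d, Prkd1, Sik1 and the calcineurin subunit gene Ppp3ca, had a promoter open in all 7 lists, as did all 12 co-repressor and co-activator genes, among them Ncor1, Hdac3 and Ep300, and the 6 other HDAC genes. Of the 14-3-3 genes, 6 of 7 did, and Sfn had no promoter locus. Of 10 known MEF2 targets, 4 had a promoter open in all lists, the immediate early and Krüppel-like genes Nr4a1, Jun, Klf2 and Klf4. Over all protein-coding genes, 57.4% had at least 1 promoter locus open in all 7 lists. That count is stricter, because for the genes listed here different promoter loci of a gene could serve different lists. The muscle target genes Myog, Ckm, Smyd1 and Hrc had no promoter locus. The promoter of Des, encoding the muscle filament desmin, was open in Hdac7SA.Mef2d and in all 3 Hras.E1A lists and in no Hras.Myc list, and that of Xirp1, encoding an actin-binding protein of muscle, had peaks only in the Hdac7SA.Mef2d list and the TSA lists.

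PD closed in both Hras lines 61 of 211 loci of the kinase and phosphatase genes (28.9%, 22.9 to 35.5), 13 of 66 of the 14-3-3 genes (19.7%, 10.9 to 31.3), 25 of 109 of the co-repressor and co-activator genes (22.9%, 15.4 to 31.97), 18 of 97 of the MEF2 targets (18.6%, 11.4 to 27.7) and 7 of 50 of the other HDAC genes (14%, 5.82 to 26.7), beside the 24.4% of all loci given above. Ppp3ca had the most, with 11 of 16. PD opened in both lines 11 of 151 (7.28%, 3.69 to 12.7), 2 of 21 (9.52%, 1.17 to 30.4), 6 of 62 (9.68%, 3.63 to 19.9), 0 of 27 (upper bound 12.8%) and 2 of 17 (11.8%, 1.46 to 36.4) loci of these lists, beside 6.71% of all loci. The 10 intervals hold the values of all loci. Loci open only in Hdac7SA.Mef2d made up 18.2% of 418 loci, 8.91% of 101, 13.9% of 201, 8.55% of 152 and 7.50% of 80 in the same order of lists. Each share was below the 24.0% of all loci and below the 39.3% (27.1 to 52.7) of Hdac9. The lists pool several genes, and in the first of them Prkd1 alone had 14 of 23 such loci, a higher share than Hdac9.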

How the data were processed

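The 7 lists of ATAC-seq peaks, 1 per group, covered 12 libraries. Bowtie2 (2.4.5), MACS2 (2.2.7.1) and the build mm10 are named in the notes of the submitters. Per the study's methods, peaks called with MACS2 were refined by recovering weak peaks found in other samples. The sources used here do not say how replicates were combined. The deposited score is the authors' own value per peak, at least 1.2, on an unstated scale. It was used only as a value and a rank within its list.

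Peaks were merged across the lists (Python 3.11.15, pandas 2.3.3, numpy 2.4.6). Loci were classed, in this order, as promoter (within 1000 bp of a basic TSS of the gene), exon (1 bp or more), intron or flank, with GENCODE M21. Exact intervals were computed with scipy 1.17.1. Motifs (MEF2, AP-1, TEAD and SRF consensus, both strands, whole locus) and sequences were read from GRCm38 with pysam 0.24.0. Merging and open states were tested on simulated lists. The genes and lists were chosen with earlier results of these data known. Named were all 8 genes, every promoter locus, exon loci of Mef2d and Hdac7, loci changed in both Hras lines, the 2 highest-scoring body loci per gene open only in Hdac7SA.Mef2d and changed loci with a MEF2 element. Xirp1, Des, Ppp3ca, Prkd1 and Twist1 were named after their values were seen, as were the Hdac5 site and the Mef2a promoter match. Alternatives were another overlap, tolerance, flank, promoter window or exon rule, fewer weak peaks, lists of equal size, no loci at other promoters and no TSA lists. Wildtype MEFs were not analysed here.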

Additional observations from a re-analysis of the deposited data

Results flagged for a closer look

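Some loci changed in opposite directions in the 2 Hras lines. With PD this was 1 of the 221 loci (0.452%), beside 1.16% of all loci. It was an intron locus of Hdac4 (chromosome 1, 92075268 to 92075667) that closed in Hras.E1A, with no peak with PD against a score of 3.32 without, and opened in Hras.Myc, with a score of 6.18 with PD against no peak without. With TSA this was 5 of the 221 loci (2.26%), beside 2.16% of all loci, and all 5 closed in Hras.E1A and opened in Hras.Myc. The share of all loci counts both directions together. Its split by direction was not computed, so the shared direction of the 5 does not show a trait of these genes. The 5 were intron loci of Hdac4 at 92042294 and 92113263, an intron locus of Hdac5 at 102223108, and flank loci of Mef2b at 70200484 and of Mef2d at 88191261. At 92042294 the scores were no peak with TSA against 6.48 without in Hras.E1A, and 6.31 with TSA against no peak without in Hras.Myc. The difference between the lines was not tested, because each group has 1 list.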

How the results depend on the processing

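Of 106 values recomputed for 16 results under 13 alternative settings, 94 stayed within the interval of the main value or, for a count, within 1.5 times of it, and 12 moved. Lists of equal size moved most. With them the order of the 8 genes and all loci turned in 3 of 12 results, with 14.9% beside 17.8% opened by TSA in Hras.E1A, 25.3% beside 22.0% closed by TSA in Hras.Myc, and 15.2% beside 16.4% closed in Hdac7SA.Mef2d and open in both untreated Hras lists. They also gave 38.6% of loci opened by PD in Hras.E1A and 38.1% in Hras.Myc, 19.6% open only in Hdac7SA.Mef2d among untreated lists, 21% opened by PD in both lines and 14 Hdac9 body loci open only in Hdac7SA.Mef2d. The number of genes with a promoter locus open in all 7 lists was 4 with lists of equal size and 4 without the lowest quartile of peaks by score, which also gave 14.4% of loci opened by TSA in Hras.E1A. Restriction to gene bodies gave 40.4% of loci closed by PD in Hras.Myc. Against the untreated Hras lists alone, 2 Mef2d exon loci were open only in Hdac7SA.Mef2d. The settings for Hdac9 body loci and for PD in both lines were chosen after seeing the data.

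No paired analysis was possible because the lists pool the replicates, and for the same reason no replicate was left out in turn. The depth behind each list is unknown, so a closed locus is one where no peak was listed, and differences in the number of peaks between lists, with 1 library behind each TSA list, bound every share given here.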
